A study of Mus musculus with 8 samples.

Results

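The genes described here are the replication-type histone genes of the mouse, taken as every gene symbol of the count files that names a member of the Hist1, Hist2, Hist3 or Hist4 clusters and encodes histone H1, H2A, H2B, H3 or H4, with a total of 10 or more counts over the 8 libraries. The rule on symbols gave 67 genes, of which 60 passed the minimum, out of 23393 named genes. The 60 members were 6 H1, 14 H2A, 15 H2B, 12 H3 and 13 H4 genes, 48 of them in the Hist1 cluster, 9 in Hist2, 2 in Hist3 and 1 in Hist4. Of the 7 symbols under the minimum, Hist1h2aa, Hist1h2ba, Hist1h2ap, Hist1h2bq, Hist1h2br and Hist2h2aa1 had 0 counts in every library, and Hist1h2ao had 2 counts in all. Just inside the minimum stood Hist1h4m with 11 counts, Hist2h2aa2 with 18 and Hist1h2ah with 20, followed by Hist1h1t with 55.

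Histones H2A, H2B, H3 and H4 form the protein core around which DNA is wrapped, and the linker histone H1 binds where DNA enters and leaves that core. Most of the genes for these proteins are clustered, lack introns and are transcribed mainly while DNA is being replicated, and their mRNAs end in a conserved stem-loop bound by the stem-loop binding protein (Slbp) in place of a poly(A) tail. Mature neurons do not divide, so in adult cortex such transcripts can come from dividing glial and immune cells, and also from members that give polyadenylated transcripts in cells that have left the cell cycle. A library made from total RNA without poly(A) selection can hold both kinds.

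The mice were of the C57BL6/J strain, 6 to 8 weeks old, and their prefrontal cortex was taken after injection with AAV9, an adeno-associated virus that enters neurons and other brain cells. There were 8 libraries in 4 groups of 2: mice given virus with GFP and collected with the Adnp set (Adnp controls), virus with a hairpin RNA and the title Adnp (shAdnp), virus with GFP in the Pogz set (Pogz controls), and virus with a hairpin RNA and the title Pogz (shPogz). Adnp and Pogz encode zinc finger proteins of chromatin, and the series title places both as risk factors of neurodevelopmental disorders. The titles gave the groups, whereas the treatment label of both hairpin groups names ASH1L, and no promoter for the hairpins is given in the sources used here. The labels call the libraries of a group biological duplicates of bulk tissue lysate, and libraries were made from 1 µg of total RNA after ribosomal RNA depletion. The targeted genes gave a weak check of the titles. Levels are given as CPM, the counts of a gene divided by the library's counts after TMM scaling and multiplied by 1e6. Adnp was at 137 and 111 CPM in its GFP controls and 87.2 and 118 in shAdnp, so the groups overlapped (log2 fold change −0.27, SE 0.19, edgeR adjusted p = 0.768). Pogz was at 54.4 and 53.1 CPM in its GFP controls and 49.0 and 37.3 in shPogz (log2 fold change −0.32, SE 0.16, edgeR adjusted p = 0.667). The names shAdnp and shPogz therefore stand for the titles of these libraries.

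Counts in named genes ran from 27501722 in Pogz control replicate 1 to 69002749 in Pogz control replicate 2. Neuronal markers summed to between 6074 and 9352 CPM, with the cortical excitatory neuron gene Slc17a7 between 741 and 1173 CPM. Libraries that stood apart bear on the histone values. In Pogz control replicate 1 the sum of 128 noncoding RNAs without poly(A) tails (small nucleolar RNAs, Rmrp, Rn7sk and others) was 1238 CPM, against 3447 to 5148 in the other 7 libraries. In Adnp control replicate 1 the 10 leukocyte markers summed to 12.1 CPM, against 38.0 to 235 in the other 7, and the 10 microglia markers to 497 CPM, against 673 to 1703. The ribosomal RNA precursor Rn45s held 7.62% of the counts of shAdnp replicate 1 and at most 0.740% elsewhere.

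The stem-loop is the sequence feature that sets these transcripts apart, so it was read from the GENCODE transcripts (GRCm38). The histone stem-loop consensus was found after the stop codon in 42 of the 60 members. A wider search, anywhere in any protein-coding transcript, found it in 64 of 21877 genes (0.293%), a count that includes these members. Of the 44 members whose annotated transcript runs at least 60 bases past the stop codon, 41 held it after that codon. It began 21 to 58 bases after the stop codon, in the 3′ untranslated part of the last exon. There were 8 forms of the 16-base element, and the most abundant member with each form is shown with 5 bases on either side and the element in capitals.

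Hist1h1c: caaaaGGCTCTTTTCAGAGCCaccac
Hist1h4d: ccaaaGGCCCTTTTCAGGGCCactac
Hist1h3e: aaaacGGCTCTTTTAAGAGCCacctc
Hist1h4b: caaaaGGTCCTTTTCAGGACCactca
Hist2h4: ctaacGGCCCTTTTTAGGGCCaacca
Hist2h2ac: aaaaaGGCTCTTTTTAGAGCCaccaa
Hist1h4a: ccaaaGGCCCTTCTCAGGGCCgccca
Hist1h3g: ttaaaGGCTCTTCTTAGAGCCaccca

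The form of Hist1h1c was carried by 22 members of classes H1, H2A, H2B and H3, and the form of Hist1h4d by 7 members, all of them H4 genes. The form of Hist1h3e was found in 6 members, those of Hist1h4b and Hist2h4 in 2 each, and the other 3 forms in 1 each. All 12 H4 genes with an element carried a form with GGCC or GGTC at its 5′ end, and the elements of the other classes began with GGCT. The element of Hist1h1c lies on the plus strand at chr13:23739512-23739527 and that of Hist1h4d on the plus strand at chr13:23581950-23581965. In 23 members the annotation continues more than 100 bases past the element, by 840 bases in Hist1h1c and 770 in Hist1h4d, so the annotation lists transcripts that run beyond the stem-loop.

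Promoters of 55 members were found in the RefSeq table (GRCm38.p6). The 250 bases before the transcript start were searched on both strands for the TATA box core TATAAA, the CCAAT box and the octamer ATTTGCAT, none of which contains another. CCAAT was in 44 of the 55 (80%) and in 33.8% of all 32851 promoters of that length. TATAAA was in 27 (49.1%), against 12.4% of all promoters, and the octamer in 11 (20%), against 1.60%. The octamer was in 6 H2A and 5 H2B promoters and in 0 of the H1, H3 and H4 promoters, and CCAAT was in only 3 of the 12 H4 promoters. Windows of neighbouring H2A and H2B genes transcribed away from each other can overlap. A single site can then count for both genes, as the octamer of Hist1h2ae and Hist1h2bg does. The promoters of 3 abundant members are shown as examples that together hold all 3 motifs, with matches in capitals. They do not stand for their classes: Hist1h4d is among the few H4 genes with CCAAT, and Hist1h1c lacks TATAAA, which 4 of 6 H1 promoters held.

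Hist1h1c (chr13:23738557-23738806, plus strand): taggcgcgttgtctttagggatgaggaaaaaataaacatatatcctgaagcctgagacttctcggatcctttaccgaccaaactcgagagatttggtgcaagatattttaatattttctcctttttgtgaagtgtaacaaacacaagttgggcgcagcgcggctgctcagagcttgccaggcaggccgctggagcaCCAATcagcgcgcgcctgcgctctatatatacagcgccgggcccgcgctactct
Hist1h4d (chr13:23581318-23581567, plus strand): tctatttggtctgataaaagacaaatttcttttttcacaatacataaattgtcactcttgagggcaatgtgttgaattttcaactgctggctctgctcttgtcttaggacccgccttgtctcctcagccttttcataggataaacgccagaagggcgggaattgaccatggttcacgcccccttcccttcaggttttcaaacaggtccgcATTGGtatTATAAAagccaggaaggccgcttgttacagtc
Hist3h2a (chr11:58954435-58954684, plus strand): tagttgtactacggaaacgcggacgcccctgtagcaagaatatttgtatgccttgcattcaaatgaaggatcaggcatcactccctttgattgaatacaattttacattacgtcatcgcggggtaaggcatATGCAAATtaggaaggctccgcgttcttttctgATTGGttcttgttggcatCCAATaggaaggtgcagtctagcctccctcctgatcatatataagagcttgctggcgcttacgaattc

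Along these promoters the match nearest the start was CCAAT at 54 bases before it in Hist1h1c and at 68 bases in Hist3h2a, and TATAAA at 32 bases in Hist1h4d. A match is a run of letters in the window and was not tested for function.

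The members lie in 6 stretches of the genome. The largest holds 29 members at chr13:23531050-23764406 and 66.9% of all member counts. Further stretches of chromosome 13 hold 14 members (7.55% of member counts) and 5 members (1.93%), chromosome 3 holds the 9 Hist2 members (12.1%), chromosome 11 the 2 Hist3 members (10.3%) and chromosome 6 holds Hist4h4 (1.19%). The GENCODE annotation gives 57 members 1 exon and the other 3 (Hist1h2bc, Hist1h2be and Hist1h2bp) 2 exons. There were 9 pairs of an H2A and an H2B gene transcribed away from each other, with GENCODE starts 176 to 302 bases apart, which took in 18 members. Several of these GENCODE transcripts hold little beyond the coding part, as in Hist1h2ak (393 bases, 390 of them coding). Such starts differ from those of the RefSeq promoters above, so the distances depend on the annotation.

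The coding parts of these genes are close copies of each other, and how reads matching several places were counted is not given in the sources used here. In 25 members fewer than 50% of the 50-base stretches of the transcript were unique to the gene, and these held 10.4% of the member counts, with a median level of 1.24 CPM. The other 35 members held 89.6%, with a median level of 6.60 CPM. Uniqueness was taken over the whole GENCODE transcript, and the coding part alone was less unique in several of these 35. Of its 50-base stretches 2.41% were unique in Hist1h2bc, 14.8% in Hist1h2bg, 24.6% in Hist1h3c and 24.7% in Hist1h4a. The value was 57.8% in Hist1h4d, 78.1% in Hist1h1c and 100% in Hist2h2be. Members of the 35 with a mostly shared coding part may thus be uncertain too. Values of the 25 members are therefore uncertain, among them those of Hist1h3b, Hist1h3e, Hist1h3g, Hist1h2af, Hist1h2ak, Hist1h2bk, Hist1h2bn, Hist1h4b, Hist1h4k, Hist1h4n, Hist1h4m, Hist1h2ah and Hist2h2aa2. So are those of 6 members whose annotated exons overlap those of other genes on the same strand: Hist1h1e and Hist1h2be (with each other and Gm11398), Hist1h2ac (Gm24991), Hist2h2bb (Gm42743), Hist2h3c1 (Gm20634) and Hist3h2a (Trim17). Exons of 17 members overlap those of genes on the other strand: H2A genes and Hist1h4b, Hist2h2bb and Hist2h3b. The strand setting of the counting is not given, so their values may be uncertain too.

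Together the 60 members took 219114 counts, between 0.0404% and 0.0613% of the counts of a library. The 12 members with the most counts held 70.3% of them, and they are called the most abundant below, although a longer transcript takes more counts at an equal level. The H4 gene Hist1h4d (ENSMUSG00000061482.7, chr13:23581598-23582735, plus strand) had a mean of 57.0 CPM over the 8 libraries. Next in counts came the linker histone genes Hist1h1c (ENSMUSG00000036181.2, chr13:23738808-23740367, plus strand) at 46.9 CPM and Hist1h1e at 46.2 CPM, and the H2A gene Hist3h2a (ENSMUSG00000078851.4, chr11:58954685-58956830, plus strand) at 42.3 CPM. The H4 gene Hist1h4c followed at 34.3 CPM and the H2B gene Hist2h2bb at 33.4 CPM, and the most abundant H3 gene, Hist1h3e, reached only 7.41 CPM. Hist1h1t, the linker histone known from testis, was at 0.146 CPM.

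Per kilobase of RefSeq gene length, which was used for the 57 members with 1 exon, the order at the top became Hist1h4d (142 CPM per kilobase), Hist1h4c (91.5), Hist3h2a (83.3), Hist2h2bb (67.8) and Hist1h1c (64.7). These lengths end near the stem-loop in most members. The RefSeq record of Hist1h4d is 402 bases long and the GENCODE transcript 1138, so the per-length level of this gene depends on the annotation.

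By class, the 13 H4 genes held 36.7% of the member counts, the 6 H1 genes 23.8%, the 15 H2B genes 21.8%, the 14 H2A genes 11.4% and the 12 H3 genes 6.30%. The classes differ in how unique their coding parts are. Between 0% and 33.7% of coding 50-base stretches were unique in H3 members, against 73.6% to 100% in H1 members. The part of this in the class shares was not tested. The summed level of all members was 421 and 523 CPM in the Adnp controls, 557 and 598 for shAdnp, 393 and 587 in the Pogz controls and 496 and 565 in shPogz. Both shAdnp libraries were above both of their controls (means 472 ± 72.6 and 578 ± 29.2 CPM, SD, n = 2 each), a ratio of 1.22. The shPogz libraries lay between their controls (490 ± 137 and 530 ± 48.8 CPM, SD, n = 2 each), a ratio of 1.08. In bulk tissue, a change in the number of expressing cells and a change in RNA per cell cannot be told apart.

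**Figure D1:**
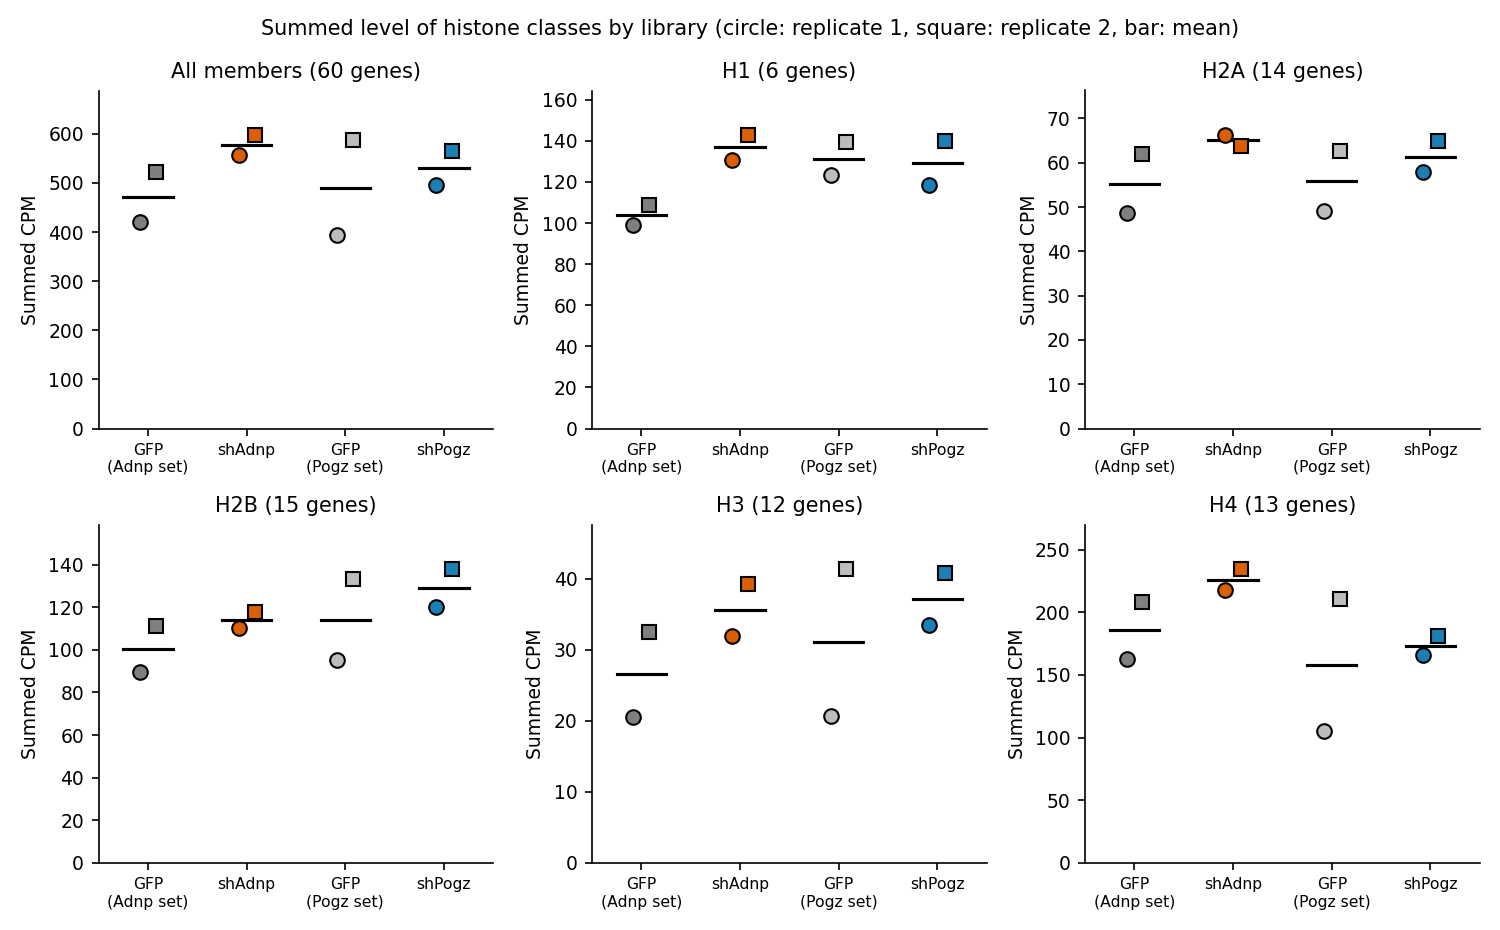
Summed CPM of all 60 members and of each histone class (vertical axes, each starting at 0) in the 4 groups (horizontal axes). Circles are replicate 1, squares replicate 2 and bars the mean of 2 libraries. Replicate 1 of the Pogz controls is the lowest library for all members (393 CPM) and for H4 (105 CPM).

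The H4 sum was at 163 and 209 CPM in the Adnp controls, 218 and 235 for shAdnp, 105 and 211 in the Pogz controls and 166 and 181 in shPogz. The H1 sum was at 99.2 and 109 CPM in the Adnp controls, 131 and 143 for shAdnp, 123 and 139 in the Pogz controls and 118 and 140 in shPogz. For both classes shAdnp stood above its controls without overlap and shPogz overlapped with its own. The H3 sum, at 20.6 and 32.5 CPM in the Adnp controls and 31.9 and 39.2 in shAdnp, overlapped in the Adnp set too.

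Low values of the members gathered in 2 control libraries. Of the 60 members, 29 had their lowest level in Pogz control replicate 1 and 25 in Adnp control replicate 1, with 3 members at 0 in several libraries counted once. The highest level fell in shPogz replicate 2 for 23 members, in Pogz control replicate 2 for 16 and in shAdnp replicate 2 for 11. These counts were not made over all genes, so they do not show a trait particular to the members. Pogz control replicate 1 also had the fewest counts of all libraries. In Pogz control replicate 1 the classes were low to different degrees: the H4 sum was 0.504 times the median of the other 7 libraries, H3 0.617, H2A 0.783, H2B 0.807 and H1 0.943 times. The sum of noncoding RNAs without poly(A) tails was 0.277 times that median in the same library. In Adnp control replicate 1 the noncoding RNA sum was 0.959 times the median, while H4 was 0.780, H1 0.758 and H3 0.614 times, beside a leukocyte sum of 0.130 times, with the T cell genes Cd3e and Cd3g at 0 counts. The part of either library property in the histone values was not tested.

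**Figure D2:**
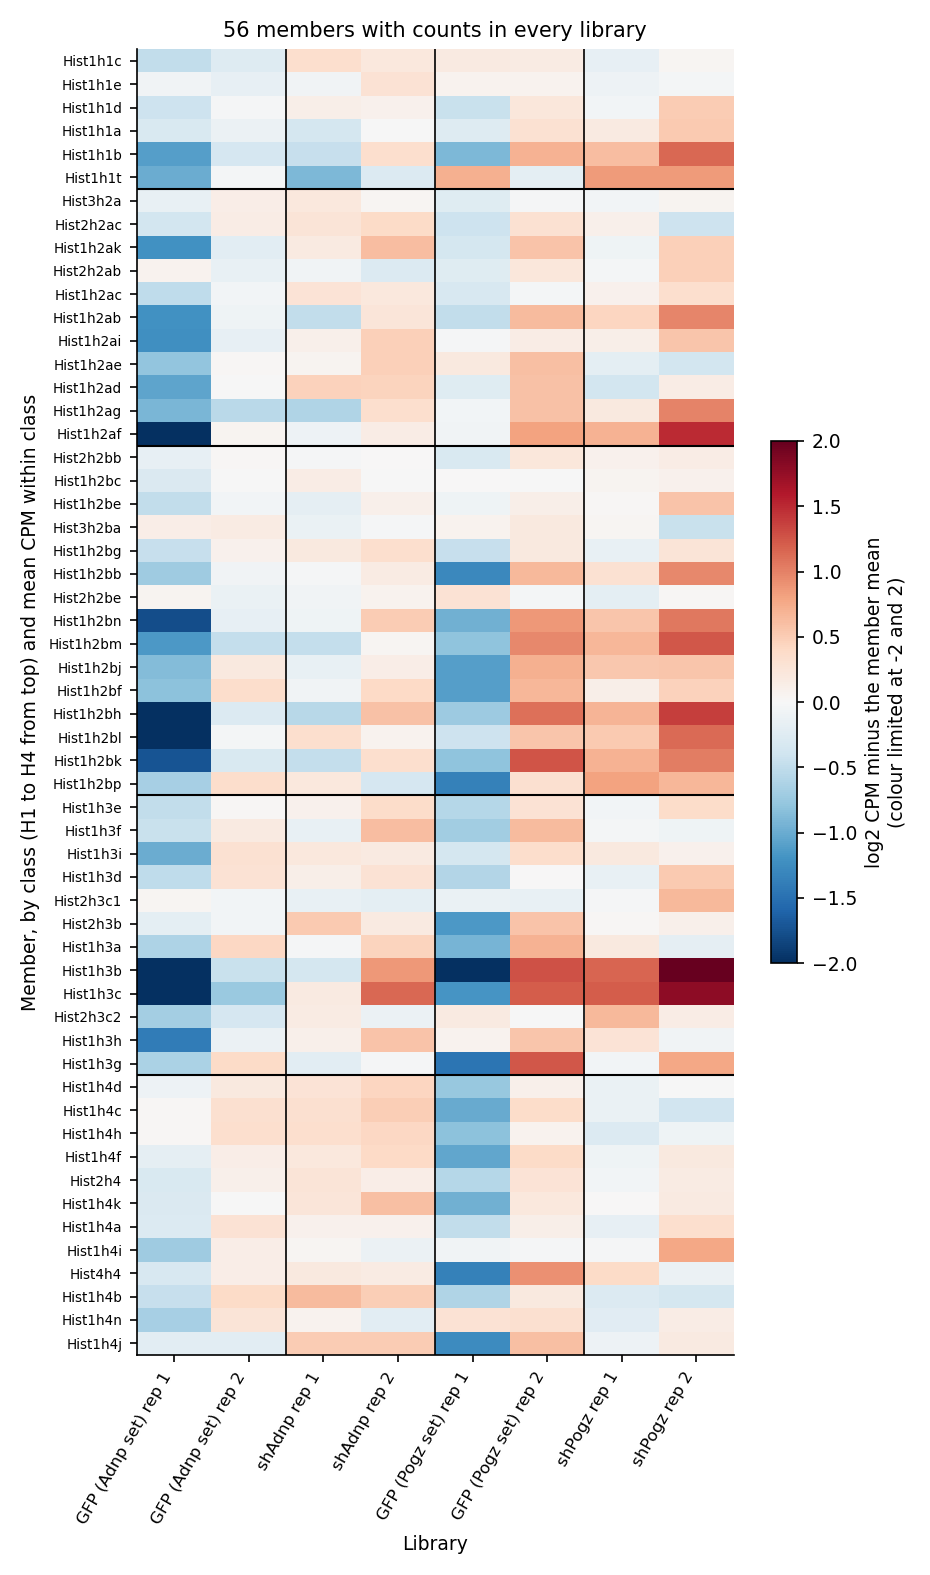
Each row is 1 of the 56 members with counts in every library, grouped by class from H1 at the top to H4 at the bottom and ordered by mean CPM within a class, and each column is 1 library. Colour is log2 CPM minus the member's mean, limited at −2 and 2, with blue below and red above the mean. Blue gathers in replicate 1 of both GFP pairs, with most H4 genes low in the Pogz-set library, and the darkest rows are Hist1h3b and Hist1h3c.

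Members differed in how far they ranged between libraries. Among the 20 most abundant members, at 6.60 CPM and above, the median ratio of the highest to the lowest library was 1.88. Among the next 20 it was 2.91. Among the last 20 it was 4.20, leaving out 4 members with a library at 0, which have no ratio. The steadiest were Hist3h2a (1.36), the H2B gene Hist1h2bc (1.36), Hist1h1e (1.38) and the H2B gene Hist2h2be (1.40). Among members with counts in every library, 4 had the widest ranges and were chosen here after their values were seen. They were the H3 genes Hist1h3c (42.5) and Hist1h3b (21.6), the H2A gene Hist1h2af (22.4) and the H2B gene Hist1h2bh (12.1). Hist1h3b was at 0.229 and 0.700 CPM in the Adnp controls, 0.747 and 1.75 for shAdnp, 0.177 and 2.32 in the Pogz controls and 2.15 and 3.82 in shPogz. Hist1h2bh was at 0.278 and 1.07 CPM, 0.869 and 1.93, 0.778 and 2.74, and 2.06 and 3.35 in the same order. Both were highest in shPogz replicate 2.

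The proliferation marker Mki67 had its highest library there too, at 4.01 and 7.18 CPM in the Adnp controls, 10.2 and 14.7 for shAdnp, 8.10 and 23.5 in the Pogz controls and 21.4 and 31.5 in shPogz. So did Top2a, which untangles DNA in dividing cells, at 1.85 and 4.89, 9.04 and 13.9, 4.14 and 17.6, and 16.8 and 32.0 CPM. The abundant H4 gene Hist1h4c did not share that order: it was at 33.1 and 40.7 CPM, 40.7 and 46.3, 16.3 and 42.2, and 29.97 and 25.2 in the same groups. The part of dividing cells in the levels of any member was not tested.

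**Figure D3:**
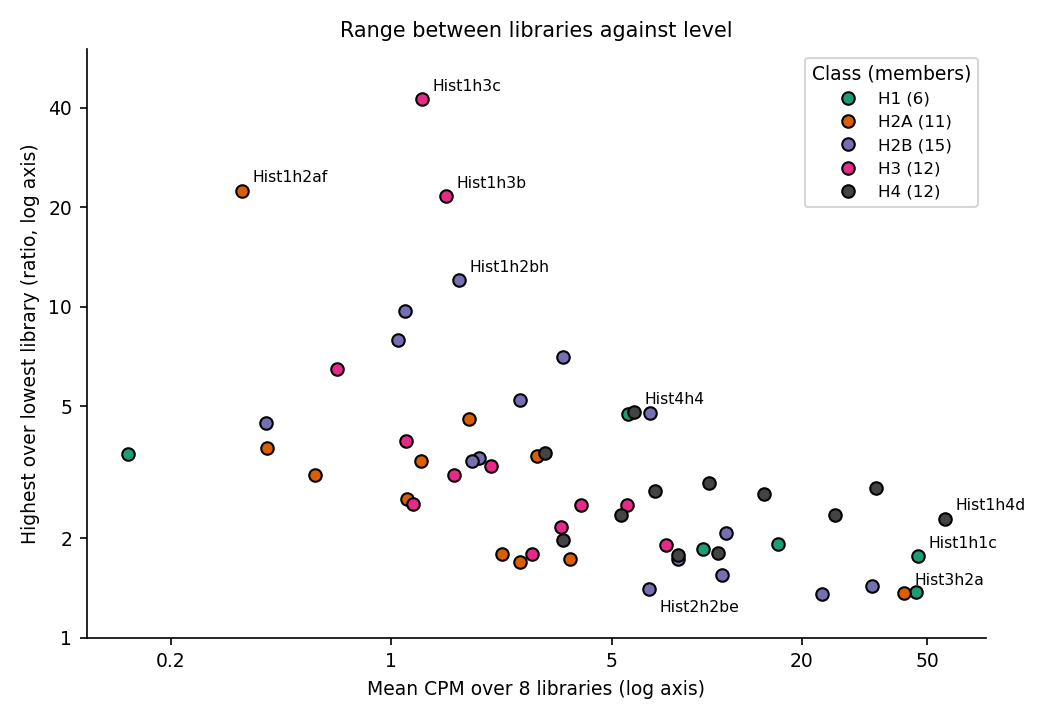
Each point is 1 of the 56 members with counts in every library, coloured by class. The horizontal axis is the mean CPM over 8 libraries and the vertical axis the ratio of the highest to the lowest library, both on log axes. Hist1h3c stands highest at 42.5, and Hist1h4d, the most abundant member at 57.0 CPM, has a ratio of 2.29.

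The first comparison asks how the histone genes stood in shAdnp against its own GFP controls. Most tested members were higher in shAdnp: 52 of 57 had a log2 fold change above 0 (91.2%), against 47.7% of all 17415 genes tested, and their median was 0.40, against −0.01 over all genes. None passed the test in edgeR (0 of 57 at an adjusted p under 0.05, and 0% of all genes), and limma-voom gave 0 too. DESeq2 called 1, Hist1h1c, and its calls over all genes are given in the closing section. At an unadjusted p under 0.05 edgeR had 3 of 57 (5.26%), against 8.36% over all genes. There were 5 in limma-voom (8.77%, against 9.42%) and 3 in DESeq2 (5.26%, against 8.67%). Both shAdnp libraries were above both controls for 30 of 57 (52.6%), against 20.4% of all genes, and below both for 2, against 21% of all genes. The 3 members not tested were Hist1h4m, Hist2h2aa2 and Hist1h2ah, and with no filter on low counts 54 of 60 were above 0. The counts rest partly on 1 control library: without Adnp control replicate 1 the members above 0 were 41 of 58, their median 0.17 and 1 had an unadjusted p under 0.05 (1.72%, against 3.32% of all genes), and without replicate 2 the median was 0.72 and 13 had such a p (22.4%, against 8.46%). Some marker lists were higher in shAdnp as well. Others were not: neuronal markers were above 0 for 1 of 8 (median −0.07) and oligodendrocyte markers for 2 of 6 (median −0.03). Neuroblast and olfactory bulb markers were above 0 for 2 of 5 (median −0.04) and endothelial markers for 3 of 5 (median 0.01). Astrocyte, striatal and oligodendrocyte precursor markers had medians of 0.22, 0.19 and 0.18. The 10 microglia markers summed to 497 and 673 CPM in the controls and 1685 and 1132 in shAdnp (10 of 10 above 0, median 1.13), the 10 leukocyte markers to 12.1 and 38.0 against 58.9 and 93.3 CPM (8 of 10, median 1.45), the 8 meningeal markers to 489 and 484 against 659 and 755 CPM (8 of 8, median 0.97), and the 36 replication and proliferation genes to 332 and 376 against 459 and 411 CPM (31 of 36, median 0.55). Their part in the histone values was not tested.

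Hist1h1c had the smallest p of the members. This linker histone gene was at 32.9 and 38.7 CPM in the Adnp controls, 58.0 and 53.2 for shAdnp, 52.0 and 51.9 in the Pogz controls and 41.2 and 47.3 in shPogz. Both shAdnp libraries were above both of their controls, and so were both Pogz controls. The shAdnp difference was 0.64 on the log2 scale (SE 0.12, edgeR unadjusted p = 0.000432, adjusted p = 0.295; DESeq2 adjusted p = 0.00164). Across the other tools, scalings, filters and samples left out, it ranged from 0.54 to 0.76, and the adjusted p from 0.00164 in DESeq2 to 1.00 in edgeR without Adnp control replicate 1. Another abundant linker histone gene, Hist1h1e, differed by 0.24 (SE 0.13, edgeR adjusted p = 0.693), at 44.0 and 41.0 CPM among controls and 43.9 and 56.4 in shAdnp, which overlapped.

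**Figure D4:**
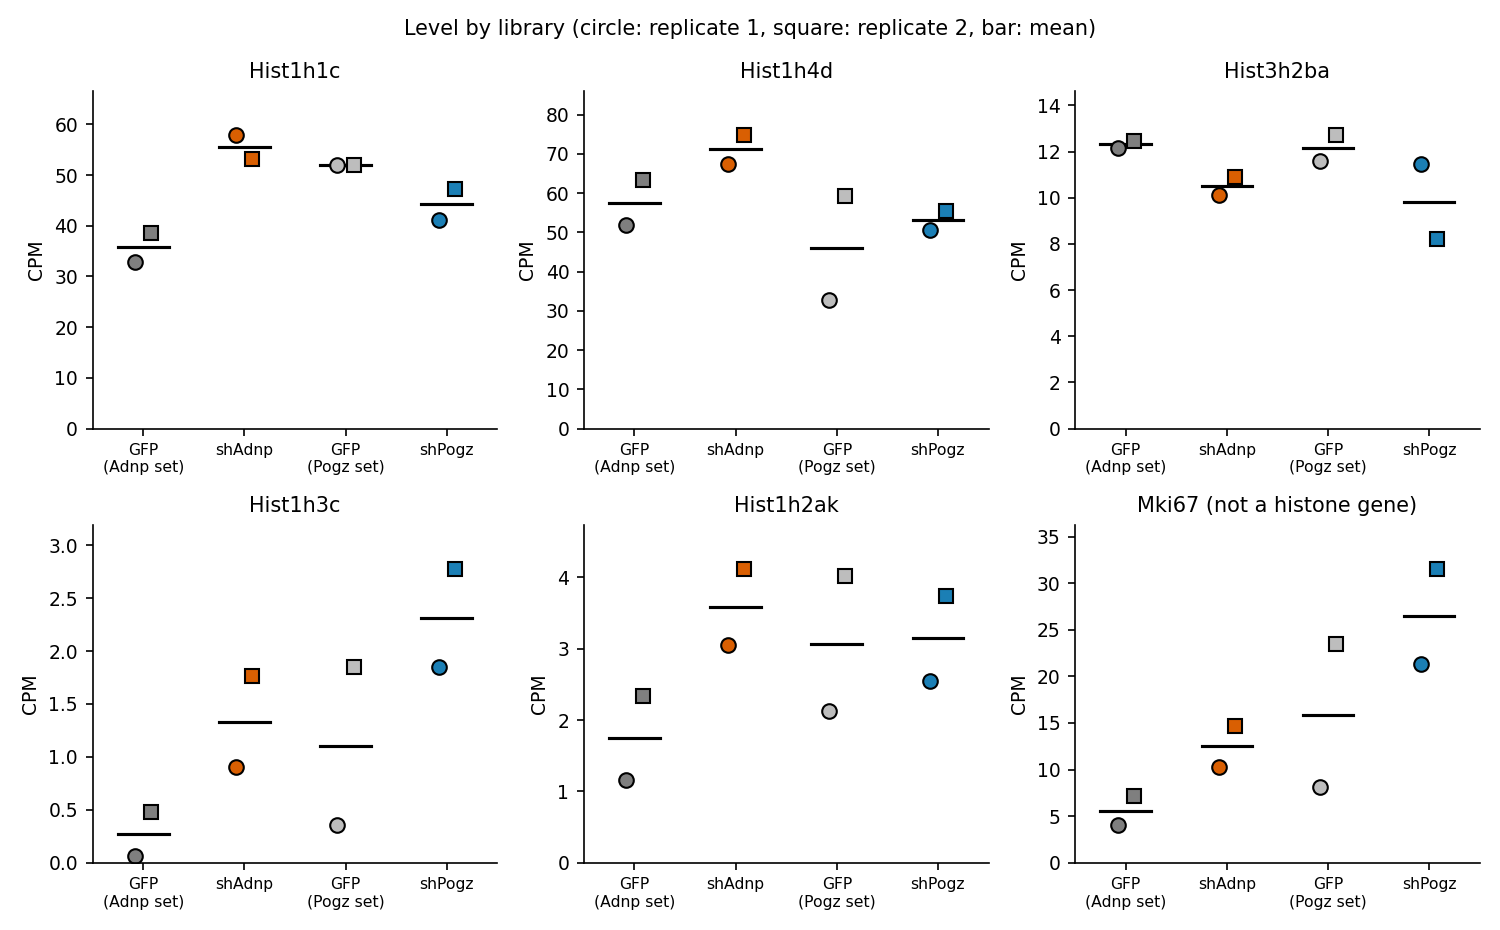
CPM (vertical axes from 0) of 5 histone genes and of the proliferation marker Mki67 in the 4 groups (horizontal axes). Circles are replicate 1, squares replicate 2 and bars the mean of 2 libraries. Hist1h1c lies at 32.9 and 38.7 CPM in the Adnp controls and at 41.2 or more in every other library, and Hist1h3c reaches 2.78 CPM in shPogz replicate 2.

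The other members with an unadjusted p under 0.05 were low in level. The H3 gene Hist1h3c had 4 and 30 counts in the Adnp controls, 52 and 98 for shAdnp, 10 and 130 in the Pogz controls and 79 and 106 in shPogz. The shAdnp libraries were above their controls, by 2.28 on the log2 scale (SE 0.95, edgeR adjusted p = 0.581). This size rests on single controls, at 1.49 without Adnp control replicate 1 and 4.30 without replicate 2. The H2A gene Hist1h2ak, of which 47.7% of 50-base stretches were unique, was at 1.16 and 2.34 CPM among controls and 3.06 and 4.12 in shAdnp, and differed by 1.03 (SE 0.42, edgeR adjusted p = 0.540), or by 0.63 without Adnp control replicate 1 and 1.63 without replicate 2. Its GENCODE start lies 296 bases from that of the H2B gene Hist1h2bn, transcribed the other way, which differed by 1.00 (SE 0.69).

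Of the 5 tested members below 0, the H2B gene Hist3h2ba was lowest. It was at 12.2 and 12.4 CPM among controls and 10.1 and 10.9 in shAdnp, below both (log2 fold change −0.23, SE 0.17, edgeR adjusted p = 0.795). The H3 gene Hist2h3c1, at 2.83 and 2.64 against 2.49 and 2.41 CPM, was also below both controls (−0.16, SE 0.28). The H2A gene Hist2h2ab (−0.13) overlapped with its controls.

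Of the 12 most abundant members 11 were above 0, the exception being Hist3h2ba. The H4 gene Hist1h4d was at 51.8 and 63.3 CPM in the Adnp controls, 67.4 and 74.9 for shAdnp, 32.7 and 59.4 in the Pogz controls and 50.6 and 55.5 in shPogz (shAdnp log2 fold change 0.31, SE 0.25, edgeR adjusted p = 0.818). Both shAdnp libraries of this gene stood above every other library. Hist3h2a was at 37.9 and 46.5 CPM among controls and 48.8 and 43.5 in shAdnp, which overlapped, as did the H2B gene Hist2h2bb at 29.6 and 33.6 against 32.8 and 33.2. By class the median log2 fold change was 0.62 for H2A (11 of 12 above 0), 0.42 for H3 (10 of 12), 0.31 for H2B (14 of 15), 0.28 for H1 (5 of 6) and 0.27 for H4 (12 of 12).

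**Figure D5:**
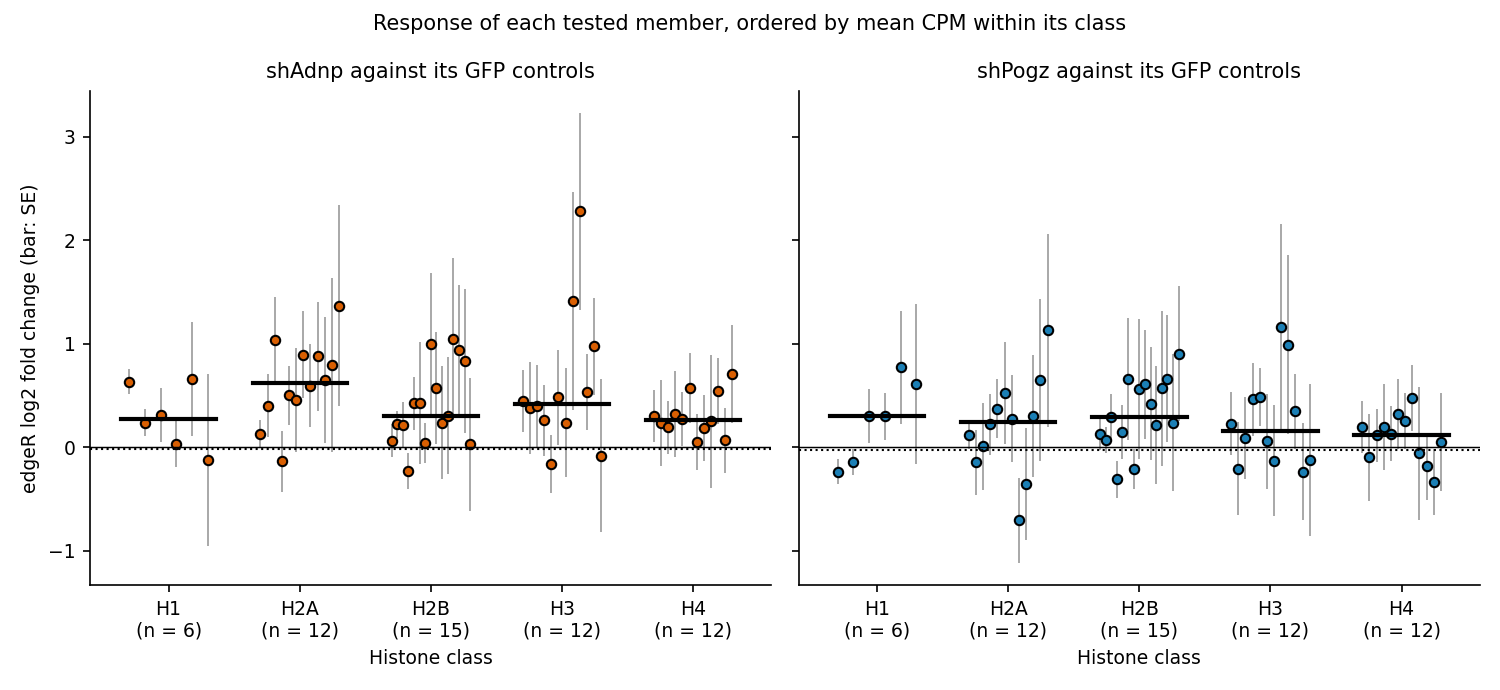
Each point is the edgeR log2 fold change (vertical axis, with its SE as a grey line) of 1 of the 57 tested members, by class on the horizontal axis and ordered by mean CPM within the class. The left panel is shAdnp and the right panel shPogz, each against its own GFP controls, thick bars are class medians and the dotted line is the median of all genes. H4 members lie closest together at left (median 0.27), and Hist1h3c stands highest there at 2.28 with an SE of 0.95.

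The second comparison asks the same of shPogz against its own GFP controls. Here 42 of 57 tested members were above 0 (73.7%), against 46.4% of all genes, and the median was 0.22, against −0.02. None passed the test in edgeR (0 of 57 and 0% of all genes), DESeq2 or limma-voom. At an unadjusted p under 0.05 each of these tools had 0 of 57. Over all genes the shares were 6.7% in edgeR, 7.56% in DESeq2 and 5.91% in limma-voom. Both shPogz libraries were above both controls for 8 of 57 (14%), against 19% of all genes, and below both for 5 (8.77%), against 21.3%. The direction turned on the control library poor in noncoding RNA: without Pogz control replicate 1, 27 of 58 were above 0 and the median was −0.05, and without replicate 2 it was 52 of 58 and 0.70, with 25 members at an unadjusted p under 0.05 (43.1%, against 8.57% of all genes). The microglia markers summed to 893 and 926 CPM in these controls and 1039 and 1703 in shPogz (9 of 10 above 0, median 0.47), the 10 leukocyte markers to 56.0 and 104 against 106 and 235 CPM (8 of 10, median 0.75), and the replication and proliferation genes to 400.4 and 419 against 449 and 629.8 CPM (34 of 36, median 0.52). The 6 tested striatal markers summed to 117 and 118 against 128 and 188 CPM (6 of 6 above 0, median 0.69), oligodendrocyte markers were above 0 for 6 of 6 (median 0.42) and neuronal markers for 0 of 8 (median −0.19). Their part in the histone values was not tested.

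In shPogz the linker histone genes with the highest levels were below both controls. Hist1h1c was at 52.0 and 51.9 CPM among controls and 41.2 and 47.3 in shPogz (log2 fold change −0.23, SE 0.12, edgeR adjusted p = 0.667), and Hist1h1e at 48.4 and 48.1 against 42.9 and 44.6 (−0.14, SE 0.13, edgeR adjusted p = 0.754). Hist3h2ba was at 11.6 and 12.7 CPM among controls and 11.5 and 8.20 in shPogz, again below both (−0.31, SE 0.18, edgeR adjusted p = 0.670). The H2A gene Hist1h2ae, at 1.24 and 1.63 against 0.936 and 0.838 CPM, was the lowest at −0.71 (SE 0.41, edgeR adjusted p = 0.670), or −0.44 without Pogz control replicate 2.

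On the upper side stood Hist2h3c1, at 2.51 and 2.49 CPM among controls and 2.69 and 4.32 in shPogz (0.49, SE 0.28, edgeR adjusted p = 0.670). The H4 gene Hist1h4i had 6.29 and 6.51 CPM against 6.53 and 11.3 (0.48, SE 0.32), and the H2B gene Hist1h2bp at 0.141 and 0.455 against 0.632 and 0.576 CPM (0.91, SE 0.65). For Hist2h3c1 and Hist1h4i the distance came from shPogz replicate 2, since replicate 1 lay close to the controls, and without replicate 2 their differences were 0.11 and 0.03. Without Pogz control replicate 1 that of Hist1h2bp was 0.43, and without replicate 2 it was 2.11. The H4 sum and Hist1h4d lay between their controls in shPogz. Class medians were 0.30 for H1 (4 of 6 above 0), 0.30 for H2B (13 of 15), 0.25 for H2A (9 of 12), 0.16 for H3 (8 of 12) and 0.12 for H4 (8 of 12).

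Set side by side, 39 of 57 tested members were above 0 in both comparisons, 2 below 0 in both (Hist3h2ba and the H3 gene Hist1h3g), 13 above in shAdnp and below in shPogz, and 3 the reverse. These joint counts were not made over all genes. They also rest on 1 control library, since without Pogz control replicate 1 only 27 of 58 members were above 0 in shPogz. The test of the difference, shPogz response minus shAdnp response, found 0 of 57 members and 0% of all genes at an adjusted p under 0.05 in edgeR. At an unadjusted p under 0.05 it had 2 of 57 (3.51%), the same share as the 3.51% over all genes. DESeq2 had 1 (1.75%, against 3.28%) and limma-voom 2 (3.51%, against 3.37%). The difference was above 0 for 15 of 57 (26.3%), against 46.9% of all genes, and the median was −0.21, but this sign depended on controls: the median was 0.05 without Adnp control replicate 1 and 0.44 without Pogz control replicate 2. Hist1h1c differed most clearly, by −0.87 (SE 0.17, edgeR unadjusted p = 0.000557, adjusted p = 0.978), with all alternatives between −0.99 and −0.73. Hist1h2ae differed by −1.30 (SE 0.57, edgeR adjusted p = 0.978) and Hist1h1e by −0.38 (SE 0.18, edgeR adjusted p = 0.978).

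The GFP controls of the Pogz set and the Adnp set had the same virus type and no hairpin, and their contrast shows how far the sets differed without one. It shares its libraries with the comparisons above, so its values are only set beside them. In edgeR 0 of 57 members passed the adjusted p, against 0.00574% of all genes (1 gene), and limma-voom gave 0. DESeq2 called 1, again Hist1h1c, and its calls over all genes are given in the closing section. At an unadjusted p under 0.05 there was 1 of 57 (1.75%), against 7.35% of all genes. In the Pogz set 45 of 57 members were above their Adnp-set level (78.9%), against 51.8% of all genes, with a median of 0.25 that became −0.24 without Pogz control replicate 2. Both Pogz controls were above both Adnp controls for 9 (15.8%), against 21.2% of all genes, and below both for 1 (1.75%), against 22.3%.

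Hist1h1c differed between the control pairs by 0.54 (SE 0.12, edgeR adjusted p = 0.656; DESeq2 adjusted p = 0.0424; up to 0.977 over the alternatives), a size near that of its shAdnp difference of 0.64. Hist1h3c differed by 2.08 (SE 0.95, edgeR adjusted p = 0.685) and the H2B gene Hist1h2bk by 1.47 (SE 0.69, edgeR adjusted p = 0.685), which were 0.36 and 0.03 without Pogz control replicate 2, 4.10 and 2.34 without Adnp control replicate 2, and 1.30 and 0.95 without its replicate 1. On the other side the H4 genes Hist1h4h, at 25.1 and 31.3 against 14.1 and 25.9 CPM, and Hist1h4d differed by −0.48 (SE 0.26) and −0.32 (SE 0.25). Without Pogz control replicate 1 the values were −0.12 and 0.05, and without replicate 2 that of Hist1h4h was −1.02. H4 was the only class with a median below 0 here, at −0.11 with 5 of 12 above 0, against 0.72 with 11 of 12 for H2A.

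The hairpin effect averaged over both sets, in a model with terms for set and hairpin, was above 0 for 52 of 57 members (91.2%), against 44.7% of all genes, with a median of 0.27. In edgeR 0 of 57 and 0% of all genes passed the adjusted p, as did 0 members in DESeq2 and limma-voom, and 3 of 57 had an unadjusted p under 0.05 (5.26%), against 12.5% of all genes. These were Hist1h3c at 1.58 (SE 0.64, edgeR adjusted p = 0.367, and 2.44 without Pogz control replicate 2), the H2A gene Hist1h2ac at 0.44 (SE 0.19, edgeR adjusted p = 0.380) and Hist3h2ba at −0.27 (SE 0.12, edgeR adjusted p = 0.391). Hist1h2ac was at 1.55 and 2.13 CPM in the Adnp controls and 2.68 and 2.56 for shAdnp, and at 1.77 and 2.15 in the Pogz controls and 2.34 and 2.78 in shPogz. It was thus above its controls in all 4 hairpin libraries, and Hist3h2ba was below its controls in all 4.

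Members with fewer counts had larger differences and larger errors in shAdnp. The 20 most abundant members had a median of 0.24 in shAdnp and 0.17 in shPogz, the next 20 a median of 0.40 and 0.15, and the 17 tested of the last 20 a median of 0.83 and 0.35. The SE grew as well, with medians of 0.26, 0.43 and 0.64 in shAdnp. By position, the 13 tested members of the stretch around Hist1h4k on chromosome 13 had a shAdnp median of 0.71 (13 of 13 above 0), the 29 of the largest stretch 0.32 (27 of 29), and the 8 tested Hist2 members 0.17 (6 of 8). The Hist3 pair had a median of −0.05, from 0.13 for Hist3h2a and −0.23 for Hist3h2ba.

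Genes that make and process histone mRNA showed no such lean. Of 30 tested genes of that list, 12 were above 0 in shAdnp (median −0.02) and 18 in shPogz (median 0.03). Slbp was at 21.4 and 24.1 CPM in the Adnp controls and 21.2 and 20.1 in shAdnp, and at 22.9 and 20.6 against 24.2 and 25.3 in the Pogz set (log2 fold changes −0.14, SE 0.12, and 0.19, SE 0.12). Npat, the coactivator of histone gene transcription, differed by −0.05 (SE 0.11) and 0.08 (SE 0.11). The genes with the smallest p in the list were Coil and Snrpd3 in shAdnp (both −0.22) and E2f1 and Ncbp2 in shPogz (−0.48 and 0.28), with edgeR adjusted p from 0.667 to 0.743.

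Of the 11 tested histone variants made outside replication, 9 were above 0 in shAdnp (median 0.08) and 5 in shPogz (median −0.08). The most abundant, H3f3b, which encodes the replacement histone H3.3, was at 126 and 146 CPM in the Adnp controls and 176 and 150 in shAdnp (0.26, SE 0.15, edgeR adjusted p = 0.709). The centromeric histone gene Cenpa differed by 0.71 (SE 0.38) and 0.31 (SE 0.37). Of 20 histone chaperones, 10 were above 0 in shAdnp and 12 in shPogz, with medians of 0.00 and 0.04. Chaf1b and Asf1b, which deposit new histones behind the replication fork, differed by 1.60 (SE 0.60) and 0.89 (SE 0.46) in shAdnp and by 0.60 (SE 0.57) and 0.88 (SE 0.44) in shPogz, and none of these passed the adjusted p in edgeR. Among replication and proliferation genes, 10 of 36 had an unadjusted p under 0.05 upward in shAdnp and 4 in shPogz, against 6.67% and 4.05% of all genes. The helicase subunit gene Mcm3 was at 2.84 and 3.64 CPM in the Adnp controls and 8.54 and 7.04 in shAdnp (1.26, SE 0.30, edgeR adjusted p = 0.295), and at 4.74 and 7.02 against 7.74 and 13.3 CPM in the Pogz set (0.82, SE 0.29, edgeR adjusted p = 0.667).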

How the data were processed

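The deposited files hold raw read counts per gene symbol, 1 file per library, made by the authors with STAR, featureCounts and DESeq2 on build mm10 per the submitters' processing notes. Per the labels' protocols, reads of a stranded kit were trimmed by Cutadapt and aligned by TopHat2 to RefSeq. Versions, strand setting and treatment of multiply matching reads: not given in the sources used here. In each library 25 rows were dates in place of symbols (0.306% to 0.337% of counts) and 2 were blank, and both were left out. Per the file headers, the column of the second shPogz library is numbered 3, and the design text speaks of 3 knockdown mice where 2 libraries per group were analysed.

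Counts were fitted in R 4.3.3 with edgeR 4.0.16: filterByExpr at a minimum count of 10, which kept 17415 genes, TMM scaling, a robust quasi-likelihood fit to all 8 libraries with 4 residual degrees of freedom, and Benjamini-Hochberg adjustment over all genes at 0.05. Alternatives were DESeq2 1.42.0, limma-voom (limma 3.58.1), other scalings and filters, only the libraries compared, a replicate block and each library left out. The script was tested on simulated data. A group has only 2 libraries, so every p-value depends on variation pooled over the 4 groups. Named members were the 12 most abundant, the 3 with the smallest p each way in each comparison, and the most abundant of each class and cluster; the text gives a part of these. Top2a, Slc17a7, Hist1h1t, Hist1h2bn and the members of widest range were chosen after their values were seen. Members and lists were chosen with earlier results of these data known.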

Additional observations from a re-analysis of the deposited data

How the results depend on the processing

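Counts of genes passing the adjusted p depended on the tool, and the cause was not tested. edgeR called 0, 0, 0, 1 and 0 genes for shAdnp, shPogz, their difference, the control pairs and the average, and DESeq2 called 420, 100, 2, 73 and 711. With no low-count filter the control pairs gave 6. Replicate numbers were not taken as pairing the samples: over the 6 pairs of groups the correlation of same-numbered deviations was −0.002 within the Adnp set, 0.037 within the Pogz set, 0.140 between the control groups, 0.280 and 0.129 between either control group and the other set's hairpin group, and −0.075 between the hairpin groups. With the replicate block edgeR called 144 genes for shAdnp, 26 for shPogz, 18 for the control pairs and 455 for the average, and the members with an unadjusted p under 0.05 became 12, 3, 10 and 19 (21.1%, 5.26%, 17.5% and 33.3% of those tested, against 9.62%, 7.65%, 7.84% and 12.9% of all genes), with Hist1h3c passing in the average (adjusted p = 0.0476, and 0.0856 to 0.757 under the other alternatives).

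Members with an unadjusted p under 0.05 moved from 3 in shAdnp to 5 with limma-voom (8.77%, against 9.42% of all genes). With only the 4 libraries compared they were 6, a share above the 9.34% of all genes. For the difference they were 1 with DESeq2 and 1 with a minimum of 1 CPM in 2 libraries. Both shares were below those of all genes (3.28% and 3.58%). For the control pairs such members were 5 with DESeq2 (8.77%, against 7.61% of all genes) and 3 with limma-voom (5.26%, against 7.69%). For the average they were 6 with DESeq2 and 5 with limma-voom, both lower shares than over all genes (12.9% and 12.6%).

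Leaving out 1 library at a time, genes called ranged from 0 to 8 (shAdnp), 0 to 153 (shPogz), 0 to 4 (difference), 0 to 6 (control pairs) and 0 to 556 (average). Members with an unadjusted p under 0.05 ranged from 1 to 13, 0 to 25, 1 to 10, 1 to 14 and 0 to 24 in the same order, where the highest counts stood against 8.46%, 8.57%, 2.09%, 6.01% and 11.1% of all genes. Members above 0 ranged from 41 to 54, 27 to 52, 7 to 45, 21 to 55 and 47 to 55, and their median from 0.17 to 0.72, −0.053 to 0.70, −0.53 to 0.44, −0.24 to 0.52 and 0.20 to 0.51. A group left with 1 library is assumed to vary like the others. For the control pairs Hist1h4d ranged from −0.83 to 0.047 (the latter without Pogz control replicate 1) and Hist3h2a from −0.25 to 0.031 (without Adnp control replicate 2). For the average Hist2h2be ranged from −0.14 to 0.011 (without Pogz control replicate 1) and Hist1h4n from −0.31 to 0.026 (without Adnp control replicate 2).

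Without the 3 most abundant members the summed level was 336, 401, 344 and 389 CPM in the Adnp controls, shAdnp, the Pogz controls and shPogz. None of the scalings, filters and tools changed the side of 0 of a member median. Members under about 1 CPM rest on few counts, as in Hist1h3c with 4 counts in 1 control.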
